A study of Conyza sumatrensis with 22 samples.

Results

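In leaves of Conyza sumatrensis, 33 of 45437 gene models were almost without transcripts before spraying and present 5 h after the synthetic auxin 2,4-D in both sensitive populations. They were chosen by a rule on TPM (a transcript level scaled for transcript length and for the size of the library), summed over the transcript models of each gene. In S and in T separately, a member had an untreated mean under 1 TPM and a treated mean of at least 2 TPM. Its treated mean was also at least 4 times the untreated mean, and its lowest treated library stood above its highest untreated library. The values of S and T in these genes therefore chose the members and are given as a description. The libraries of the resistant population R had no part in the choice, and tests are given there.

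PolyA RNA was sequenced from 6 groups of leaf samples, and the 2,4-D dose was 1005 g ai per hectare (ai, active ingredient). Population R, resistant to 2,4-D per the series' design text, gave 3 treated and 4 untreated libraries. Sensitive population S gave 4 treated and 3 untreated libraries, and sensitive population T gave 4 of each. Untreated leaves were sampled before spraying, and no group was sprayed without 2,4-D, so the effect of 2,4-D cannot be told apart from those of spraying and time of sampling. With 1 resistant population, resistance cannot be told apart from other differences between populations. Whether replicate libraries are separate plants is not stated in the labels, and p-values therefore measure only the spread between these libraries, which may be technical. The libraries held 19.2 M to 24.4 M assigned reads. In whole leaf, more cells with a transcript and more transcript per cell cannot be told apart.

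Auxin acts through F-box receptor proteins that mark Aux/IAA repressors for destruction, which frees auxin response factors to activate their target genes. In model plants many such targets, among them members of the Aux/IAA and SAUR families, are scarce until auxin arrives and accumulate soon after. Synthetic auxins such as 2,4-D persist longer than the natural hormone and are used against broadleaved weeds such as Conyza. The files identify the genes only by a letter and a running number and pair them with no gene name. What the 33 members encode is therefore not given here, no list of auxin genes or leaf markers could be matched, and few identifiers are named.

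The number of members at 2 TPM or more per library is largely set by the rule in S and T, and not in R. Of the 33 members, 21 to 32 stood at 2 TPM or more in each treated S library, against 0 in each untreated S library. In T these numbers were 27 to 33 in treated libraries, against 1 in untreated library 1 and 0 in the others. In R they were 25 to 30 in treated libraries and 3 to 9 in untreated libraries. The summed level of the members reached 3624, 1430 and 947 TPM in treated R libraries 1 to 3, against 47, 79, 151 and 92.9 TPM in untreated R libraries 1 to 4. It was 311, 334, 823 and 1709 TPM in treated S, against 15.6, 10.7 and 8.56 TPM in untreated S. In T it was 364, 677, 498 and 255 TPM treated, against 23, 10.1, 11.3 and 12.9 TPM untreated. In all 3 populations the treated sums lay above the untreated sums without overlap, which the rule fixes for S and T and not for R.

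**Figure D1:**
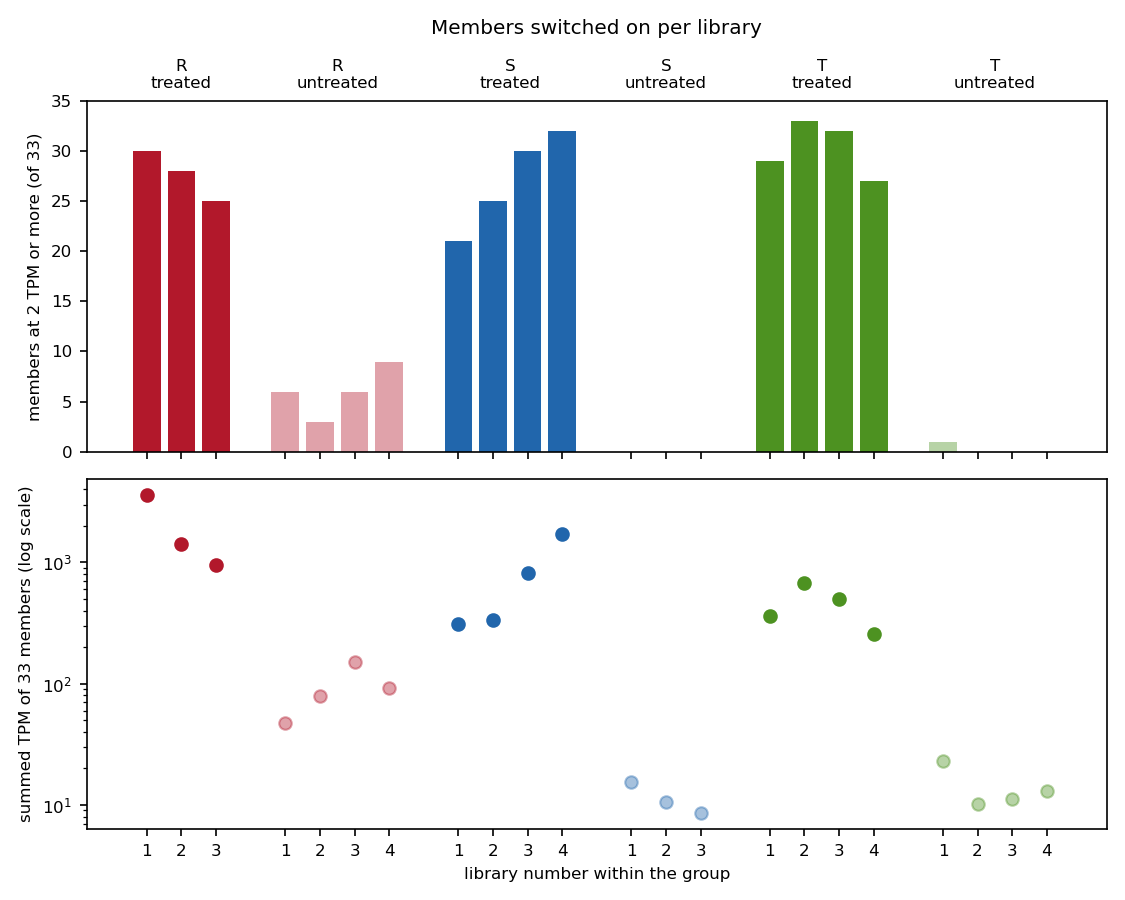
Number of the 33 members at 2 TPM or more (upper panel) and their summed TPM on a log scale (lower panel) in each library, with treated libraries in full colour and untreated libraries pale. Untreated R libraries held 3 to 9 members at this level, and untreated S and T libraries held 0 or 1.

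The sums were carried by few genes, the 3 highest members making up 42.8% of the summed treated level in R, 45.7% in S and 41.2% in T. Over the members, the median of the treated means was 20.4 TPM in R, 8.87 TPM in S and 7.01 TPM in T. The median of the untreated means was 0.819 TPM in R, 0.312 TPM in S and 0.387 TPM in T. Members ranked more alike in treated S and T than either did with treated R. Across the 33 members, Pearson's r of log2 treated mean TPM was 0.61 for S and T, 0.29 for R and T and 0.27 for R and S, with Spearman's rho of 0.48, 0.22 and 0.18. These coefficients describe the members as chosen in S and T.

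Gene g6116 was the most abundant member in treated S and T. It stood at 82.3, 89, 218 and 383 TPM in treated S libraries 1 to 4, against 1.1, 0.278 and 0.45 TPM in untreated S. In treated T it stood at 93.6, 163, 123 and 55.8 TPM, against 1.08, 0.334, 0.565 and 1.5 TPM in untreated T. Only in R was it abundant before spraying, at 9.79, 57.5, 102 and 50.3 TPM in untreated libraries, and it stood at 430, 196 and 155 TPM in treated R. The untreated R libraries overlapped neither the treated R libraries above them nor the untreated S and T libraries below them. It averaged 260 ± 148 TPM in treated R (SD, n = 3) and 55 ± 37.9 TPM in untreated R (n = 4), and it rose in R with a log2 fold change of 2.20 (SE 0.64, edgeR adjusted p = 0.0243). This call was lost without treated library 1 (1.5) and without untreated library 2 (2.27) or 4 (2.14). For g6116 it was also lost with the R libraries alone in the model (edgeR adjusted p = 0.0959) and without the filter on low counts (0.0505). Its estimated counts were not whole, within 0.0005, in 14 libraries, so reads were divided with other transcripts.

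Gene g26192 was second by the average of the treated S and T means, though second in neither population alone. It stood at 119, 36.5 and 25.8 TPM in treated R, against 2.27, 1.49, 12.4 and 5.12 TPM in untreated R. In S it stood at 30.2, 28.4, 106 and 173 TPM treated, against 0.952, 1.66 and 0.251 TPM untreated. In T it stood at 21, 40.9, 38.3 and 15.5 TPM treated, against 1.09, 0.238, 0.207 and 0.571 TPM untreated. Treated and untreated libraries did not overlap in any population. The log2 fold change of g26192 in R was 3.51 (SE 0.77, edgeR adjusted p = 0.00398), 2.41 without treated library 1 and 4.34 without untreated library 3. Genes g6116 and g26192 are the members with the highest untreated means in R, although untreated R library 2 of g26192 lay below untreated S library 2.

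**Figure D2:**
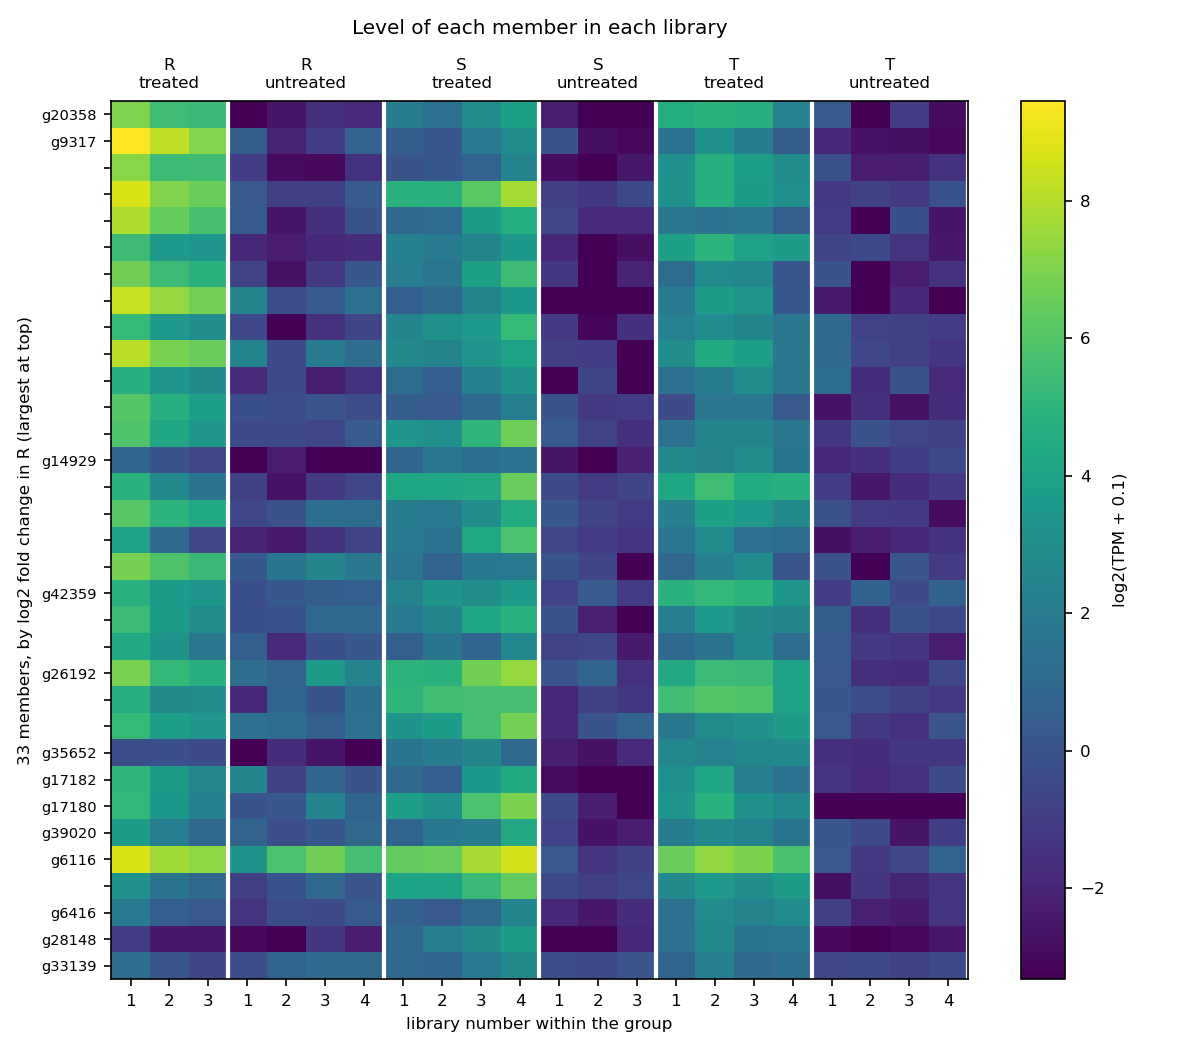
Level of the 33 members in the 22 libraries as log2(TPM + 0.1), with treated left of untreated libraries in each population and members ordered by their log2 fold change in R. Identifiers are given for the members named in the text. Most members are dark in untreated libraries of all 3 populations, g6116 is bright in untreated R, and g28148 stays dark in treated R.

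In the resistant population, 29 of the 33 members rose, 0 fell and 4 did not pass the test (edgeR quasi-likelihood test, adjusted p under 0.05 over all tested genes). Of all 22627 genes tested in R, 9.37% were called higher and 7.03% lower. Among the 4610 tested genes with an untreated R mean under 1 TPM, a level that 18 of the members had, 12.7% were called higher. The share of these genes called lower was not measured. All 33 members passed the filter on low counts, which used all 22 libraries, so that the treated S and T levels favoured it. Gene g28148 had no value in the fit of the R libraries alone. Only 1 member had a negative log2 fold change in R, 0 had one with an unadjusted p under 0.05, and DESeq2 also called 0 lower. The log2 fold changes in R had a median of 4.63 over the members, against -0.03 over all tested genes, and ran to 9.03. The 29 called members had treated R means of 0.713 to 378 TPM and untreated R means of 0.0243 to 55 TPM.

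By the same fit, 29 members were called higher in S and 32 in T, against 2.58% and 5.72% of all tested genes. The rule used those libraries, and nothing is read from these counts. Median log2 fold changes over the members stood at 4.63 in R, 5.76 in S and 4.89 in T. With members that had no count in an untreated group set at their lower bound, the medians were 5.69 in S and 4.89 in T. The log2 fold change was larger in R than in both S and T for 12 members and smaller than in both for 15. The difference between these responses was not tested, since S and T values chose the members.

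**Figure D3:**
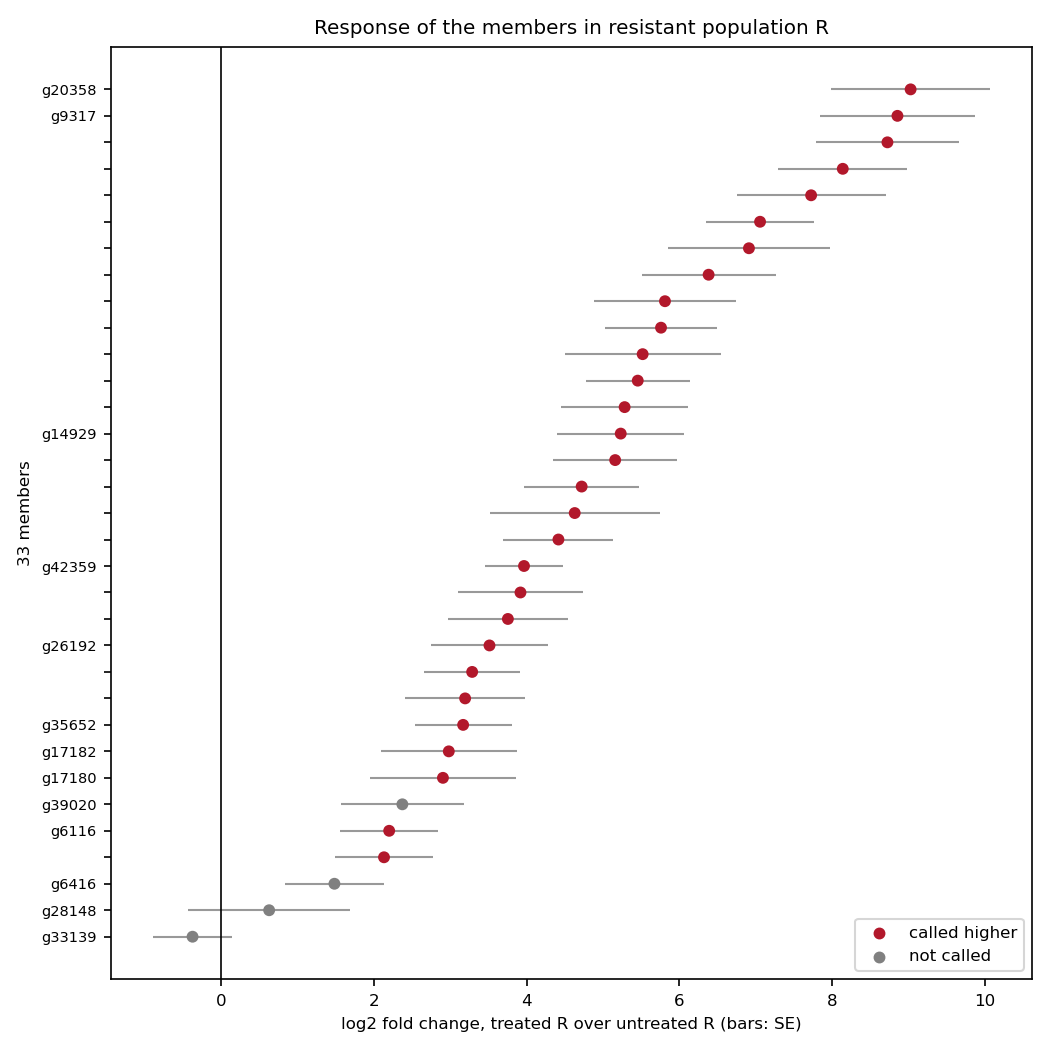
Log2 fold change of each member in R, treated over untreated, with its standard error as a bar; the 33 members run from the largest at the top. Red points are the 29 members called higher and grey points the 4 that did not pass the test.

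Applied to the R libraries, the same criteria were met by 14 members, or 42.4%, against 0.724% of all gene models. That background includes 22810 gene models removed by the filter on low counts, and no member was among these. The untreated level set most of the remainder apart. A further 13 members met every criterion in R but the untreated one, with untreated R means of 1.02 to 55 TPM. In all, 18 members had an untreated R mean under 1 TPM, 13 had one of at least 1 and under 4 TPM, and 2 had one of 4 TPM or more. Treated R libraries stood above untreated R libraries without overlap in 29 members, against 13.4% of tested genes. The untreated R mean exceeded the untreated S mean in 29 members and the untreated T mean in 26, a comparison that the low S and T levels asked for by the rule favour.

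By the edgeR estimates, the largest rises in R were those of g20358 and g9317, though the next members lay within their standard errors. Gene g20358 stood at 124, 45.2 and 39.5 TPM in treated R, against 0, 0.0704, 0.24 and 0.183 TPM in untreated R. The log2 fold change was 9.03 (SE 1.04, edgeR adjusted p = 1.86e-05), and 8.18 without treated library 1. In treated S it stood at 4.06, 2.66, 7.15 and 14.9 TPM, against 0.109, 0 and 0 TPM in untreated S. In T it stood at 24.2, 28.9, 25.6 and 5.04 TPM treated, against 1.16, 0, 0.369 and 0.0357 TPM untreated. All treated R libraries thus lay above all treated S and T libraries, and 3 of the 4 treated T libraries lay above all treated S libraries.

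Gene g9317 was the most abundant member in treated R and a low one in S and T. It stood at 698, 299 and 136 TPM in treated R, against 1.24, 0.143, 0.403 and 1.49 TPM in untreated R. The log2 fold change was 8.85 (SE 1.02, edgeR adjusted p = 1.84e-05), and 7.91 without treated library 1. Its levels were 1.25, 1.01, 3.66 and 7.13 TPM in treated S, against 0.854, 0.0448 and 0.0212 TPM in untreated S. In T they were 2.83, 9.16, 4.08 and 1.25 TPM treated, against 0.172, 0.0541, 0.045 and 0.0242 TPM untreated. The treated R mean was 116 times the treated S mean and 87.3 times the treated T mean, the widest such ratios among the members. Estimated counts of g20358 and g9317 were whole in all 22 libraries, within the same tolerance.

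Across all members, treated R means lay above both treated S and T means for 18 and below both for 8. The shares of all tested genes with such means were not measured, so these counts are not read as particular to the members. In 8 members, g20358 and g9317 among them, every treated R library lay above every treated S and T library; 14.2% of all tested genes showed this. Their treated means ran from 35.4 to 378 TPM in R, 2.21 to 10.2 TPM in S and 2.09 to 20.9 TPM in T. Between the sensitive populations, the treated S mean exceeded the treated T mean in 20 members, and the ratio of these means ran from 0.156 to 9.02 with a median of 1.07. Since treated S and T levels entered the rule, these differences are a description.

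**Figure D4:**
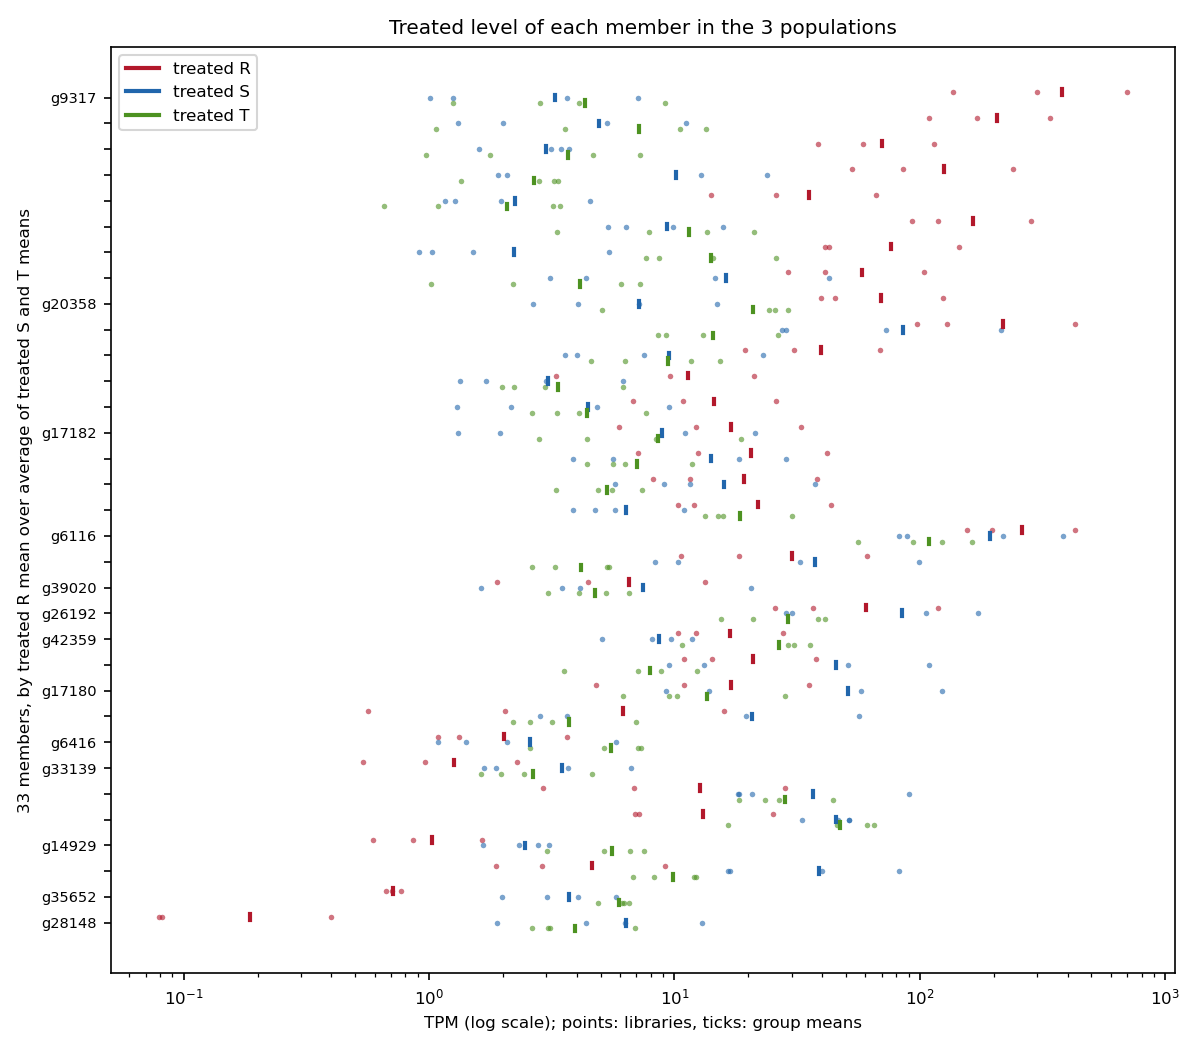
Treated level of each member on a log scale, with points for libraries and ticks for group means in treated R, S and T. Members are ordered by the treated R mean over the average of the treated S and T means, from g9317, 116 times the S mean, at the top to g28148, lower in every treated R library than in any treated S or T library, at the bottom.

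At the other end, 3 members were lower in every treated R library than in any treated S or T library; 4.61% of all tested genes showed this. Gene g28148 was hardly detected in R, at 0.398, 0.0816 and 0.0797 TPM treated and 0.0254, 0, 0.301 and 0.106 TPM untreated, with 19 counts in each group. It reached 1.89, 4.35, 6.3 and 12.9 TPM in treated S, against 0, 0 and 0.181 TPM in untreated S. In T it reached 2.62, 6.89, 3.05 and 3.1 TPM, against 0.0261, 0, 0.024 and 0.0772 TPM in untreated T. The R groups overlapped, and the log2 fold change of 0.63 in R did not pass (SE 1.06, edgeR adjusted p = 0.768) and was -0.62 without treated library 1 and 1.95 without untreated library 3, again not called.

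Genes g35652 and g14929 rose in R but stayed low there. Gene g35652 stood at 0.704, 0.768 and 0.667 TPM in treated R, against 0, 0.212, 0.0674 and 0 TPM in untreated R (edgeR adjusted p = 0.00202, log2 fold change 3.17, SE 0.64). In treated S it stood at 3.01, 4.06, 5.77 and 1.98 TPM, against 0.109, 0.0499 and 0.189 TPM in untreated S. In treated T it stood at 6.21, 4.89, 6.12 and 6.51 TPM, against 0.246, 0.211, 0.301 and 0.323 TPM in untreated T. The log2 fold change of g35652 was 4.61 without untreated R library 2, and with a model of the R libraries alone its call was lost (edgeR adjusted p = 0.0868). Gene g14929, singled out after its values were seen, stood at 1.65, 0.858 and 0.592 TPM in treated R and had all 5 of its untreated R counts in library 2. The log2 fold change of g14929 in R was 5.23 (SE 0.83, edgeR adjusted p = 0.000272); without untreated library 2 no count was left to compare with. It averaged 2.47 ± 0.619 TPM in treated S and 5.56 ± 1.96 TPM in treated T (SD, n = 4 each).

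The other members that did not pass in R were g33139, g6416 and g39020; the last 2 were named after their values were seen. Gene g33139 has the longest coding region of the members, 15891 bases, and the lowest log2 fold change in R. It stood at 2.28, 0.967 and 0.538 TPM in treated R, against 0.708, 1.64, 1.98 and 2 TPM in untreated R, and the groups overlapped (edgeR adjusted p = 0.704, log2 fold change -0.38, SE 0.52). The log2 fold change of g33139 was -1.26 without treated library 1 and -0.0014 without treated library 3. It stood at 1.87, 1.68, 3.7 and 6.65 TPM in treated S, against 0.734, 0.605 and 0.939 TPM in untreated S. In T it stood at 1.63, 4.59, 1.96 and 2.44 TPM treated, against 0.579, 0.597, 0.449 and 0.605 TPM untreated, which puts it near the fold set by the rule in both populations.

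Gene g6416 stood at 3.65, 1.32 and 1.09 TPM in treated R, against 0.279, 0.737, 0.658 and 1.13 TPM in untreated R, with 1 overlapping library (edgeR adjusted p = 0.128, log2 fold change 1.48, SE 0.64; 0.60 without treated library 1). Its counts were divided with other transcripts in all 22 libraries. Gene g39020 stood at 13.3, 4.46 and 1.88 TPM in treated R, against 1.56, 0.72, 1.03 and 1.74 TPM in untreated R. These R groups did not overlap, and its log2 fold change of 2.37 missed the threshold (SE 0.81, edgeR adjusted p = 0.0501). For g39020 it was 1.18 without treated library 1, and it passed without treated library 3 (2.82), with RLE factors (edgeR adjusted p = 0.0481) and with DESeq2 (adjusted p = 0.0179). The treated S levels of g39020 were 1.63, 3.48, 4.12 and 20.5 TPM, so that library 4 set its mean there.

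Within each treated group the members moved together from library to library, least so in treated T. Treated R library 1 was the highest of the 3 for 32 of 33 members, against 35.3% of tested genes. Library 3 was the lowest for 31, and the share of tested genes was not measured. The order of library 1 above 2 above 3 held for 30 members, against 25.5% of tested genes. Treated S library 4 was the highest of the 4 for 31 members, against 24.1% of tested genes. Treated T library 2 was the highest for 22 members, against 36.8%. The members' level in treated R library 1 was a median of 3.31 times the mean of libraries 2 and 3, while the median over tested genes was 0.91. For treated S library 4 the members' median ratio was 3.44, against 0.89 over tested genes. For treated T library 2 it was 1.79, against 1.19 over tested genes. The rule used the treated S and T values, which can favour libraries with high levels. The S and T numbers are therefore a description, while the R libraries had no part in the choice.

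Other genes that responded were often highest in the same libraries. Of the 2091 other genes called higher in R, 90% were highest in treated library 1. Of the 554 others called higher in S, 75.1% were highest in treated library 4, and of the 1262 others in T, 47.9% in treated library 2. These genes were called from the same treated libraries, which favours a library with high values. Their shares are therefore a description. Treated R library 1 held 19.2 M reads, treated S library 4 held 20.4 M and treated T library 2 held 20.1 M, each the fewest of its group. The 10 most counted genes took 4.09% of reads in treated R library 1, the smallest share of all libraries, and 8.36% in treated S library 4, the largest. In treated T library 2 they took 5.85%, the smallest share of treated T. The part of depth or composition in these patterns was not tested. Without treated R library 1, 23 members were called higher in R.

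**Figure D5:**
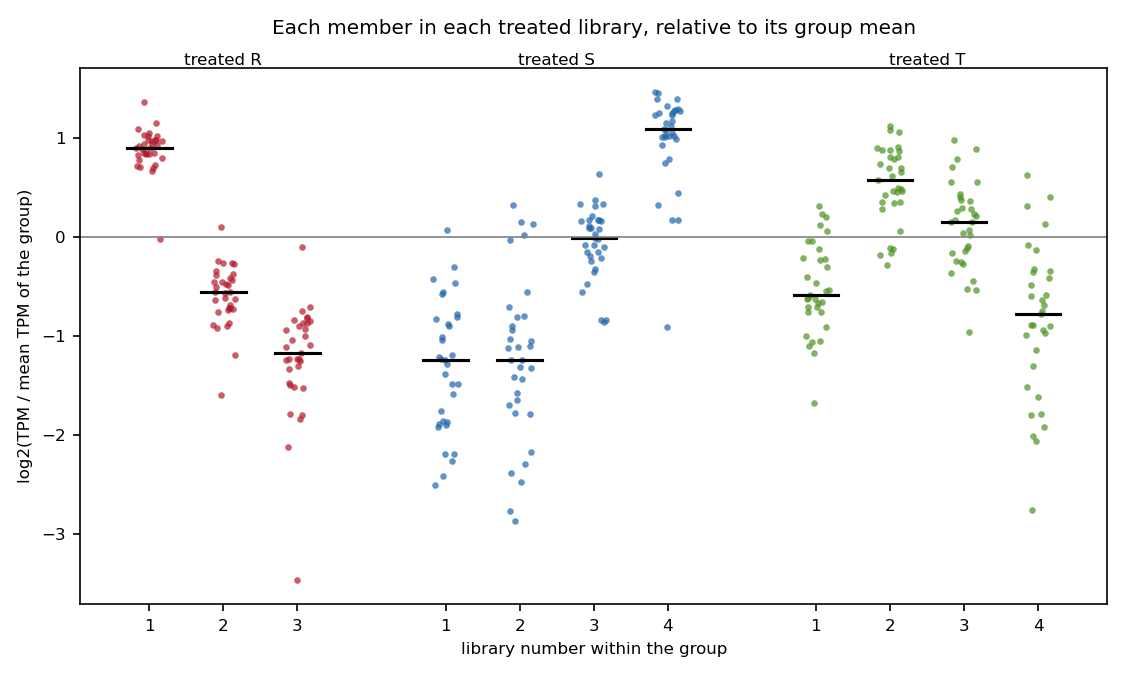
Level of each of the 33 members in each treated library as log2 of its TPM over the mean TPM of the group, with the median as a black line. Points of R library 1, S library 4 and T library 2 lie mostly above 0, those of R library 3 below 0.

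Some features outside the rule were measured as well. The members' coding lengths ran from 564 to 15891 bases with a median of 1185, against a median of 1311 over all tested genes. More than 1 transcript model was listed for 1 member, against 7.08% of tested genes. That member, g42359, was named for this after its values were seen. Its first transcript averaged 16.8 TPM in treated R, 8.65 TPM in treated S and 25.4 TPM in treated T, and its second 0, 0 and 1.1 TPM. Gene g42359 rose in R, at 27.8, 12.3 and 10.3 TPM in treated libraries against 0.778, 1.03, 1.28 and 1.33 TPM in untreated libraries (log2 fold change 3.96, SE 0.51, edgeR adjusted p = 4.08e-05; 3.27 without treated library 1). Estimated counts that were not whole, within the same tolerance, occurred in at least 1 library for 16 members, close to the 48.4% of tested genes.

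Only 1 pair of members, g17180 and g17182, had identifier numbers at most 2 apart. Their coding lengths were 1320 and 1398 bases, and counts of both were divided with other transcripts in 12 libraries, so their levels are uncertain. Gene g17180 stood at 35.3, 11 and 4.79 TPM in treated R, against 0.903, 1.02, 5.42 and 1.64 TPM in untreated R, with overlap at untreated library 3. In S it stood at 13.8, 9.22, 57.7 and 123 TPM treated, against 0.687, 0.11 and 0 TPM untreated, and in treated T at 10.2, 28.3, 9.46 and 6.17 TPM, with no count in untreated T. Gene g17182 stood at 32.7, 12.3 and 5.94 TPM in treated R, against 5.57, 0.461, 1.7 and 0.906 TPM in untreated R. It stood at 1.95, 1.31, 11 and 21.2 TPM in treated S and at 8.38, 18.7, 4.41 and 2.81 TPM in treated T, against 1 count in untreated S and 0.353 ± 0.228 TPM in untreated T (SD, n = 4).

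The pair kept close levels in treated R, while g17180 was higher than g17182 in every treated S and T library. Both rose in R, g17180 with a log2 fold change of 2.90 (SE 0.95, edgeR adjusted p = 0.0471) and g17182 with 2.98 (SE 0.89, edgeR adjusted p = 0.0269). Both calls were lost without treated library 1, at 1.63 for g17180 and 1.93 for g17182. That of g17180 was also lost without untreated library 1 (2.64), 2 (2.69) or 4 (2.77) or treated library 2 (3.19), and that of g17182 without untreated library 2 (2.66), 3 (2.88) or 4 (2.72). Without untreated library 3 the value of g17180 was 3.82, and without untreated library 1 that of g17182 was 4.01. With the R libraries alone in the model the edgeR adjusted p was 0.0718 for g17180 and 0.0719 for g17182, and without the filter on low counts it was 0.108 and 0.0584.

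The rule was met by 110 gene models in S (0.242%) and 83 in T (0.183%), and the 33 members are 30% of the S genes and 39.8% of the T genes. In R, 329 gene models met the criteria, 28 of which did so in S, or 25.5% of the S genes and 8.51% of the R genes. The R genes also held 22 of the T genes, or 26.5% of the T genes and 6.69% of the R genes. Of the 77 genes that met the rule in S and not in T, 47 had an untreated T mean of 1 TPM or more. In T, 32 had a treated mean under 2 TPM, 37 rose under 4-fold and 45 had overlapping libraries. A gene can fail by more than 1 criterion. Of the 50 that met the rule in T and not in S, these numbers in S were 32, 18, 25 and 29, in the same order.

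The members just inside the limits had untreated means of 0.955 TPM in S and 0.995 TPM in T, treated means of 2.21 and 2.09 TPM, and ratios of treated to untreated means of 4.26 and 4.76. Genes that missed by 1 criterion alone came as near as 1.1 TPM untreated in S and 1.07 TPM untreated in T, and 1.53 and 1.78 TPM treated. No gene missed by the ratio alone, while 4 genes missed only by overlapping libraries in S and 3 only by those in T.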

How the data were processed

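Trimmomatic and Salmon are named in the submitters' processing notes, with versions, reference transcripts and strand use not given in the sources used here. Reads of a gene and of an antisense partner can therefore not be told apart. Per the file headers, the authors deposited, for each of 22 libraries, estimated counts per transcript model, which need not be whole, TPM values over effective lengths, and the lengths, which are nearly all multiples of 3 (47817 of 47916) and are called coding lengths. Members and lists were chosen with earlier results of these data known. Named members were the 2 with the highest treated S and T levels, the largest and the lowest log2 fold changes in R, the highest untreated R levels, treated R means under 1 TPM, and neighbouring identifiers.

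TPM were summed per gene for the rule. Estimated counts were rounded, summed per gene, filtered with filterByExpr (22627 genes kept), scaled by TMM and tested with edgeR 4.0.16 (robust quasi-likelihood F test, R 4.3.3), with 1 mean for each of 6 groups and Benjamini-Hochberg adjustment over all tested genes. The common biological coefficient of variation was 0.304. Standard errors are log2 fold changes, without sign, over the root of F. A lower bound for a group without counts used a floor of 3 counts over the group, which covers counting error only. Alternatives used DESeq2 1.42.0 and limma 3.58.1, other scalings, filters, thresholds and left-out libraries. Same-numbered treated and untreated R libraries did not deviate together (correlations -0.17, -0.01 and -0.02), so the numbers were not used as pairs.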

Additional observations from a re-analysis of the deposited data

Results flagged for a closer look

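Single libraries stood apart from the other 3 of their group in 6 of 59 groups of 4 examined. A rate of about 1 in 20 by chance holds for independent, normally distributed values. These groups share libraries, and some members were named after their values were seen, so the count is not read against that rate. Gene g39020 stood at 20.5 TPM in treated S library 4, against 1.63 to 4.12 TPM in the others. Gene g28148 stood at 6.89 TPM in treated T library 2, against 2.62 to 3.1 TPM. Gene g17180 stood at 5.42 TPM in untreated R library 3, against 0.903 to 1.64 TPM. Gene g14929 stood at 0.0973 TPM in untreated R library 2, where the others held 0. Gene g33139 was low in untreated T library 3, at 0.449 TPM against 0.579 to 0.605 TPM. Untreated T library 1 had 1 member at 2 TPM or more, where the others had 0.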

How the results depend on the processing

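Over the 15 alternatives that fitted R anew, 23 to 30 members were called higher and 0 lower, and 20 members were called higher under each of the 15. Leaving out 1 R library gave 23 to 30 members called higher, and choosing the members without 1 S or T library gave 26 to 34 called higher of 28 to 42 members. With the replicate block, 23 were called higher, and g26192 (3.68), g6116 (2.25) and g17180 (2.73) were not; the replicate numbers did not pair the libraries. With an untreated limit of 0.5 TPM, 16 members were left, of which 14 were called higher in R and 5 met the criteria in R. With a treated limit of 5 TPM, 16 were left, 16 called higher and 5 meeting them, and with an 8-fold limit 9 of 26 met them, each under its own changed criteria. Thresholds on CPM gave 35 members, 24 of them shared with the TPM list. Values of the named members kept their direction and side of the threshold in 168 cases, lost the call in 22 and gained it in 3. Only g28148 changed direction (-0.62 without treated R library 1); its highest value was 1.95, without untreated R library 3. The cause was not tested. Low counts in untreated leaves (5 counts of g14929 in untreated R) limit the fold changes.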
